A study of Mus musculus with 24 samples.

Results

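Periostin belongs to the matricellular proteins, which are secreted into the extracellular matrix but act mainly as signals and organisers rather than as load-bearing fibres. Transcripts of 10 genes of this kind were followed in the right ventricle of mice under combined pressure and volume load: Postn, Tnc, Thbs1, Thbs2, Thbs4, Spp1, Ctgf, Cyr61, Cthrc1 and Comp. They were chosen by name, as the probes whose gene name is one of these symbols, and they are 10 of the 23338 named genes on the array. Ctgf and Cyr61 are the older symbols of Ccn2 and Ccn1. Tnc had 2 probes and each other gene had 1.

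In the healthy adult heart most matricellular genes are expressed at low levels, and several are induced in fibroblasts and other cells when the wall is stretched, injured or remodelled. Periostin binds collagen and integrins and is a widely used marker of activated cardiac fibroblasts. Connective tissue growth factor (Ctgf) and Cyr61 are CCN-family proteins and standard targets of the mechanosensitive YAP/TAZ-TEAD transcription complex, while the thrombospondins bind matrix, growth factors and integrins.

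The study compared right ventricles of mice after surgery that loads the chamber with pressure and volume, labelled PSPI, with those of sham-operated mice. There were 5 PSPI arrays at month 1, 5 at month 2, 4 at month 3 and 10 sham arrays, all of total RNA from whole right ventricle and all with the strain entry M/FVB/10-12. The sham titles give no month, so every month was set against the same 10 shams. The labels do not say whether arrays of a group came from separate mice, so p-values measure the spread between arrays, which may be partly technical. Levels are log2 of the scanner's processed signal minus the 75th percentile of that array, and levels of different probes are not compared with each other. The number of arrays limits the precision of every value.

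Several arrays stood close together. Over the 200 most variable genes, 8 of 276 pairs of arrays had a median difference of 0.0946 to 0.199 on the log2 scale, and the next pair lay at 0.273. All 8 were pairs within a group and 6 were on different slides: Sham 3, 4 and 10 with each other, Sham 1 with 5, Sham 7 with 9, month 1 arrays 1 and 5, month 2 arrays 1 and 5, and month 3 arrays 2 and 3. The labels name them as separate samples, so they were kept apart in the main test, and the calls are also given with each such set averaged, which leaves 17 samples (4, 4 and 3 at months 1, 2 and 3, and 6 shams). Sham 3, 4 and 10 also had the atrial myosin light chain Myl7 at 3.48 to 3.53, against -7.89 to -3.59 in the other 7 shams, of which 4 were well above background. In PSPI arrays Myl7 ran from -3.84 to 2.19 at month 1, from -4.67 to -0.47 at month 2 and from -7.27 to -5.91 at month 3. Leaving out Sham 3, 4 and 10 therefore does not level Myl7 between the other arrays. All 8 ventricular markers were above background, and their summed level was 7.81 to 9.60 in PSPI arrays and 7.80 to 9.12 in shams. It was read by group and not for Sham 3, 4 and 10 by themselves. The arrays lay on 3 slides. Slide 2 held no sham and slide 1 held 7 shams with 1 month 1 array, so slide 3 (3 shams, 1, 1 and 3 arrays of months 1, 2 and 3) was the only slide with every group.

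Of the 10 genes, 7 were measured well above background on all 24 arrays and entered the test, and Tnc, Spp1 and Cthrc1 did not. Before their values, the sequences below show which parts of the transcripts and genes the results refer to. The probes of Comp, Thbs2 and Tnc are shown because their 60 bases are spread over a longer stretch of the genome, or, for the second Tnc probe, because it gives the gene a second measurement. The Comp probe lies over 134 bases at chr8:72905692-72905825 on the plus strand, the Thbs2 probe over 1264 bases at chr17:14804526-14805789 on the minus strand, and the Tnc probes over 764 bases at chr4:63674248-63675011 and over 60 bases at chr4:63643728-63643787, both on the minus strand (mm9, from the array files).
Comp probe: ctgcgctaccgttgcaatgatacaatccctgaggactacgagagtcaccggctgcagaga
Thbs2 probe: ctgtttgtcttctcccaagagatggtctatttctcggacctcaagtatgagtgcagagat
Tnc probe 1: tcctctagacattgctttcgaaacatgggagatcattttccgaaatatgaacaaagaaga
Tnc probe 2: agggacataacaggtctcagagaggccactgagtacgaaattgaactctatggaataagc
The other probes each cover 60 bases in 1 piece: Postn at chr3:54194840-54194899 (plus strand), Thbs1 at chr2:117952585-117952644 (plus), Thbs4 at chr13:93521565-93521624 (minus), Ctgf at chr10:24318281-24318340 (plus), Cyr61 at chr3:145310187-145310246 (minus), Spp1 at chr5:104868502-104868561 (plus) and Cthrc1 at chr15:38918358-38918417 (plus). Which exon or untranslated region each probe lies in was not assigned, since no annotation of mm9 was used here.

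The 250 bases before the transcription start were read from RefSeq (GRCm38.p6) for the 6 genes found in its promoter table. Those of Postn (its second start), Thbs4 and Cyr61 are printed because they hold a TATA element close to the start or the motif bound by TEAD factors, through which YAP and TAZ act. Capitals mark TATAAA in Postn and Cyr61, and the TEAD motif GGAATG, read on the opposite strand as CATTCC, in Thbs4 and Cyr61.
Postn, chr3:54360857-54361106, plus strand: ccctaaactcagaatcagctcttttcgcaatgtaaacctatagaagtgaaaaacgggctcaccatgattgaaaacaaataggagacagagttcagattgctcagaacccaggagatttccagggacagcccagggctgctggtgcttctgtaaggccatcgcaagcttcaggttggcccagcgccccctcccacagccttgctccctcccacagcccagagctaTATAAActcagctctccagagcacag
Thbs4, chr13:92794819-92795068, minus strand: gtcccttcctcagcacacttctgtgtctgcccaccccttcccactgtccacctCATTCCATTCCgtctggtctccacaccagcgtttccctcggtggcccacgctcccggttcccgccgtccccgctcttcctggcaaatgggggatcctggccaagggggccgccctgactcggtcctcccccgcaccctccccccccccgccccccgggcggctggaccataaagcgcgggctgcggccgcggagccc
Cyr61, chr3:145649986-145650235, minus strand: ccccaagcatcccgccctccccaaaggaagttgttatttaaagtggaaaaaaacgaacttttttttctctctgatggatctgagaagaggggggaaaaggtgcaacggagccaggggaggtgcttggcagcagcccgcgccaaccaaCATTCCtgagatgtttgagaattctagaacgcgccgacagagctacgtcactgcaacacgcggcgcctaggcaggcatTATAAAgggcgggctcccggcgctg
Both strands were searched. TATAAA lies at -26 to -21 in Postn and at -25 to -20 in Cyr61, counted from the start. GGAATG lies at -103 to -98 in Cyr61, and in Thbs4 2 copies that share 1 base lie at -197 to -192 and -192 to -187. Of 32851 promoters of the same length, 12.6% hold GGAATG and 12.4% hold TATAAA. Tnc, Thbs2 and Spp1 hold TATAAA farther from the start, and none of them holds GGAATG. None of the 6 genes has the AP-1 motif TGANTCA, held by 6.75% of promoters, or a CArG box, held by 1.47%.

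Periostin, Ctgf and Comp were higher in PSPI ventricles over all months and at month 3. With all months together, 3 of the 7 tested genes rose at an adjusted p under 0.05 and none fell, while 24.4% of the 12474 tested genes were called in either direction and 10.8% were called higher. At month 3, 3 of 7 rose, against 38.9% called in either direction and 17.2% called higher among all genes. At month 2, 0 of 7 passed, against 14.5% in either direction and 6.39% higher, although 5 of 7 had an unadjusted p under 0.05. At month 1, 0 of 7 passed in limma's moderated test, and so did 0% of all genes (1514 genes and 1 of the 7, Thbs2, had an unadjusted p under 0.05). The median change of the 7 genes was 0.26 at month 1, 1.19 at month 2 and 1.56 at month 3 on the log2 scale, beside 0.01, -0.02 and -0.04 for all tested genes. The balance of all calls depended on the scaling: 44.3% of the calls over all months and 44.3% at month 3 were higher, but 24.7% and 22.5% were when the percentile was taken over all probes and 31.7% and 29.8% after quantile normalization, which moved the median of all genes at month 3 to -0.20 and -0.13. The members' changes at month 3 then stood at 1.70 and 1.86 for Postn, 1.65 and 1.81 for Comp, and 1.40 and 1.45 for Ctgf, and of these Comp with the percentile over all probes did not pass (adjusted p = 0.0594). In whole-ventricle RNA, more cells of a type and more RNA per cell cannot be told apart.

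Postn, which helps to organise collagen fibrils, read -0.07, -2.23, -3.23, -2.45 and 0.04 in the 5 month 1 arrays, 0.49, -0.91, -0.39, -0.81 and 0.55 in the month 2 arrays, and 0.26, -0.21, -0.45 and 0.73 in the month 3 arrays. The 10 shams ran from -3.76 through a median of -1.79 to -0.09. Month 2 and month 3 arrays therefore lay in the upper part of the sham range or above it, but only 2 arrays of each month exceeded every sham. Those of month 2 were a close pair. The means were -1.59 ± 1.48 at month 1 (SD, n = 5), -0.21 ± 0.70 at month 2 (n = 5), 0.08 ± 0.52 at month 3 (n = 4) and -1.78 ± 1.25 in shams (n = 10). Postn rose 3.63-fold at month 3 (log2 change 1.86 ± 0.63 SE, 95% interval 0.56 to 3.16, adjusted p = 0.0232, limma). At month 2 the log2 change was 1.56 ± 0.58 (adjusted p = 0.0704), and at month 1 it was 0.19 ± 0.58 (adjusted p = 0.940). Over all months Postn was 1.21 ± 0.44 higher, with an adjusted p of 0.0491 that lies at the threshold.

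Comp, cartilage oligomeric matrix protein or thrombospondin 5, is a pentameric protein that binds collagens and is best known from cartilage and tendon. It read 1.59, -1.09, -2.15, -2.21 and 1.43 at month 1, 1.38, 1.36, 1.29, -0.49 and 1.27 at month 2, and 1.57, 0.11, 0.34 and 1.56 at month 3. Shams ran from -2.98 through a median of -0.15 to 0.32. Month 1 held both some of the highest and some of the lowest values of the study, while 4 of 5 month 2 arrays and 3 of 4 month 3 arrays exceeded every sham. Comp rose 3.52-fold at month 3 (log2 change 1.82 ± 0.72, 95% interval 0.32 to 3.31, adjusted p = 0.0496) and by 1.38 ± 0.51 over all months (adjusted p = 0.0498), both at the threshold. At month 2 its change was 1.88 ± 0.67 (adjusted p = 0.0594).

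Thbs4, a thrombospondin of muscle and tendon matrix that is induced in loaded hearts, was split within the month 1 and sham groups. Its levels were 1.69, -2.13, -2.05, -1.68 and 1.65 at month 1, 1.65, 1.11, 1.56, 0.73 and 1.42 at month 2, and 1.28, 0.24, 0.15 and 1.37 at month 3. In shams the lowest was -2.22, the median -1.81 and the highest 1.15, with Sham 6 to 9 between 0.80 and 1.15 and the other 6 between -2.22 and -1.73. No array of the study fell between -1.68 and 0.15. Every month 2 and month 3 array was therefore above the 6 low shams, and 3 and 2 of them exceeded all 10. The log2 change was 2.09 ± 0.72 at month 2 (adjusted p = 0.0515), 1.56 ± 0.77 at month 3 (adjusted p = 0.112), 0.30 ± 0.72 at month 1 (adjusted p = 0.919) and 1.32 ± 0.54 over all months (adjusted p = 0.0781), so no comparison passed.

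Thbs1, an activator of latent TGF-beta and an inhibitor of vessel growth, had the same top arrays as Postn, arrays 1 and 5 at months 1 and 2 and arrays 1 and 4 at month 3. It read -2.10, -4.03, -4.12, -4.88 and -1.69 at month 1, -1.77, -2.79, -2.30, -3.29 and -1.40 at month 2, and -1.82, -3.39, -3.17 and -1.57 at month 3, against shams from -5.20 through a median of -3.66 to -2.16. At every month, 2 arrays exceeded all 10 shams, and at months 1 and 2 these were a close pair. The changes of 0.14 ± 0.54, 1.19 ± 0.54 and 1.02 ± 0.58 at months 1, 2 and 3 did not pass (adjusted p = 0.953, 0.137 and 0.172).

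Thbs2, which limits vessel growth and supports collagen fibril assembly, was lower at month 3 than at month 1. Its levels were -2.88, -2.53, -2.37, -2.65 and -3.01 at month 1, -3.27, -3.21, -3.57, -3.91 and -3.11 at month 2, and -3.27, -3.34, -3.42 and -3.16 at month 3. Shams lay from -3.73 through a median of -3.05 to -2.78. Arrays 2, 3 and 4 of month 1 exceeded every sham, and no month 2 or month 3 array did. No comparison with sham passed: the change was 0.43 ± 0.16 at month 1 (adjusted p = 0.274), -0.30 ± 0.16 at month 2 (adjusted p = 0.224), -0.18 ± 0.18 at month 3 (adjusted p = 0.434) and -0.02 ± 0.12 over all months (95% interval -0.27 to 0.24).

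Ctgf, the CCN protein that promotes matrix production downstream of TGF-beta and YAP/TAZ, had the lowest adjusted p of the 7 genes, at month 3. It read 3.25, 2.10, 1.43, 1.72 and 3.20 at month 1, 3.41, 3.03, 3.17, 2.25 and 3.36 at month 2, and 3.69, 3.87, 3.77 and 3.26 at month 3, while shams ran from 0.98 through a median of 2.09 to 3.08. All 4 month 3 arrays were above all 10 shams, a separation that 714 genes, or 5.72% of those tested, also showed. Ctgf rose 2.95-fold at month 3 (log2 change 1.56 ± 0.39, 95% interval 0.75 to 2.37, adjusted p = 0.00350) and by 0.93 ± 0.27 over all months (adjusted p = 0.0179). At month 2 the change was 0.96 ± 0.36 (adjusted p = 0.0746) and at month 1 it was 0.26 ± 0.36 (adjusted p = 0.841).

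Cyr61, the other CCN member and, like Ctgf, a YAP/TAZ target, did not pass in any comparison. It read 0.31, -0.86, -0.10, -0.58 and 0.17 at month 1, 0.28, -0.29, 0.87, 0.03 and 0.24 at month 2, and 0.08, -0.32, -0.54 and 0.64 at month 3, against shams from -1.07 through a median of -0.54 to 1.01. No PSPI array exceeded the highest sham. The change over all months was 0.22 ± 0.24 with a 95% interval of -0.28 to 0.72, which includes 0, and the change at month 3 was 0.19 ± 0.34. Whether Cyr61 differed from Ctgf in its response was not tested.

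**Figure D1:**
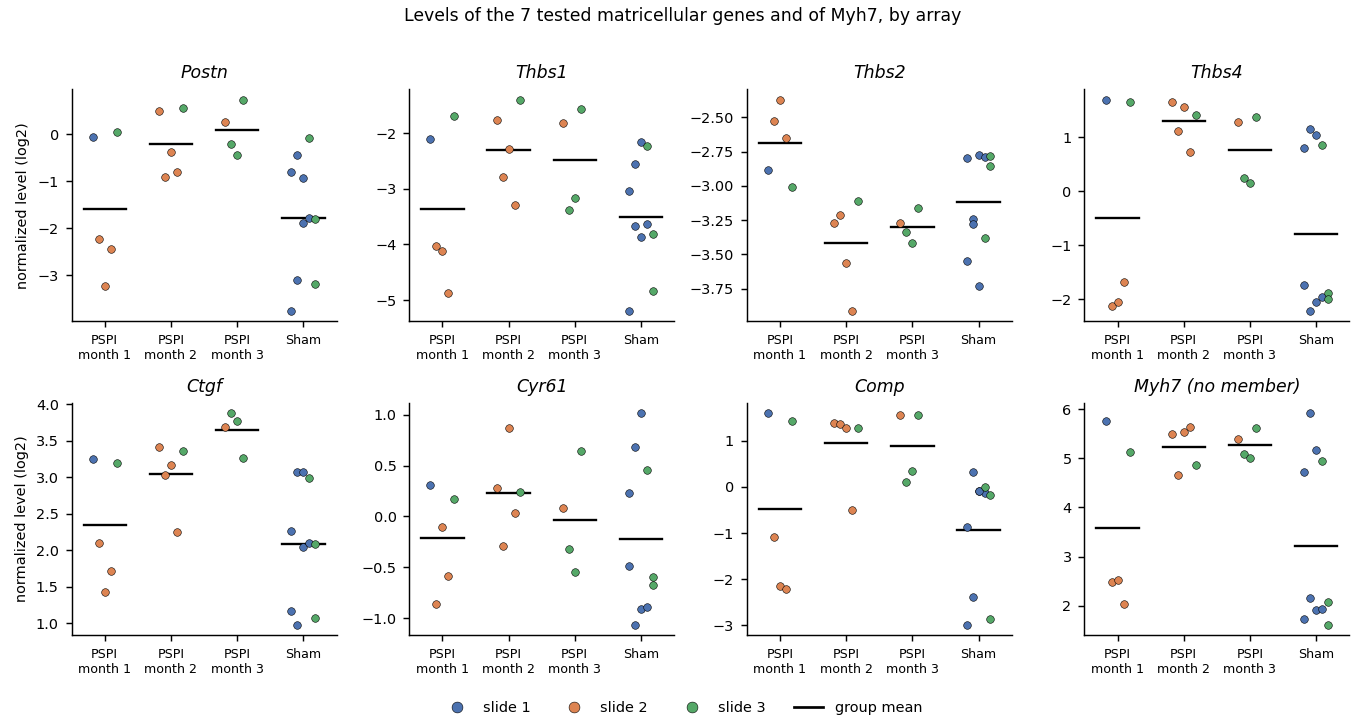
Level of each of the 7 tested genes on every array (log2 of processed signal minus the array's 75th percentile), and of Myh7, by group from month 1 to month 3 with sham last; points are arrays, coloured by slide, and horizontal bars are group means. Ctgf separates all 4 month 3 arrays from all 10 shams, while Thbs4 splits the shams into 4 arrays at 0.80 to 1.15 and 6 at -2.22 to -1.73.

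The months were also set against each other. Between month 3 and month 1, 28.5% of all tested genes were called, and 2 of the 7: Ctgf was 1.31 ± 0.44 higher at month 3 (adjusted p = 0.0310) and Thbs2 was 0.61 lower, a log2 change of -0.61 ± 0.20 (adjusted p = 0.0269). Postn was 1.67 ± 0.71 higher but did not pass (adjusted p = 0.0816). Between month 3 and month 2, 0 of the 7 were called (0 also at an unadjusted p under 0.05), against 18.7% of all genes, and between month 2 and month 1, 0 of 7 (2 at an unadjusted p under 0.05), against 0.016%, which is 2 genes. The comparisons of each month with sham share the same 10 sham arrays, so their values are not independent of each other.

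**Figure D2:**
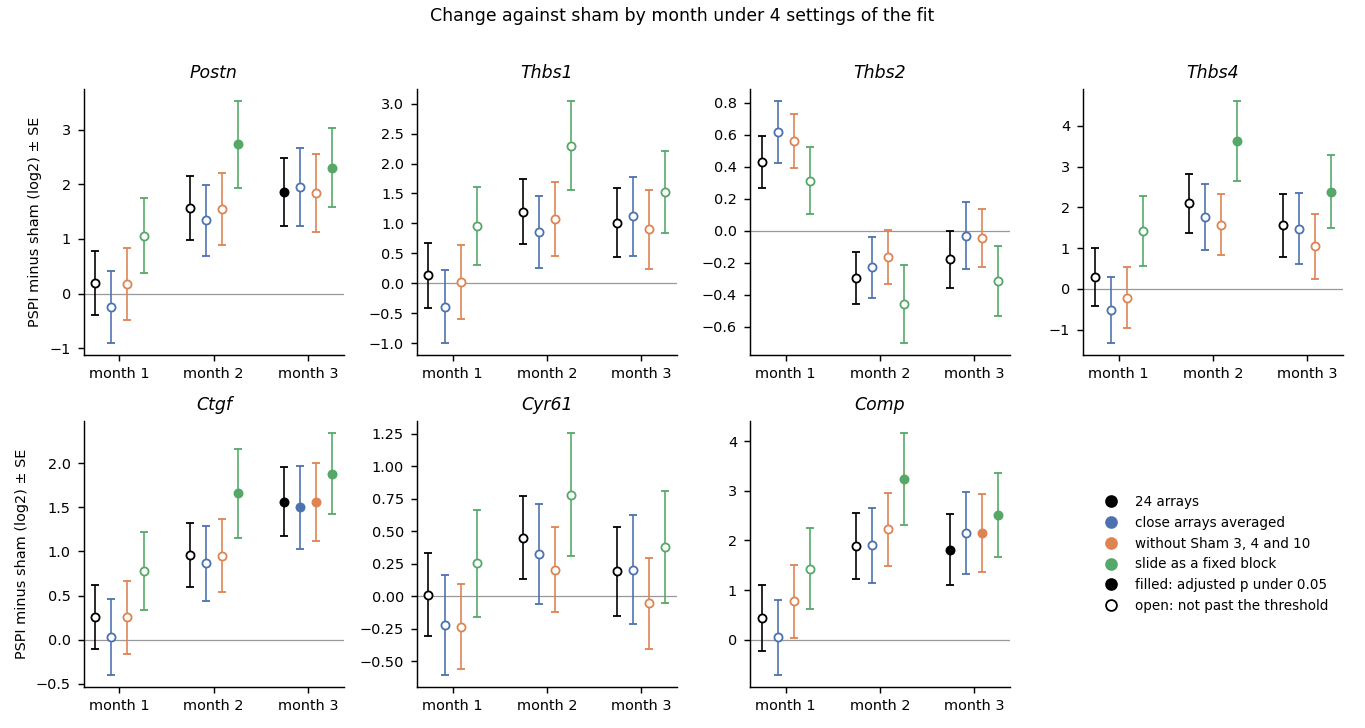
Log2 change of each tested gene, PSPI minus sham, at months 1, 2 and 3, with bars of 1 SE from limma, for 4 fits: all 24 arrays, close arrays averaged, without Sham 3, 4 and 10, and with slide as a fixed block; filled points have an adjusted p under 0.05. With all arrays Postn, Comp and Ctgf passed at month 3 (1.86, 1.82 and 1.56), and Ctgf is filled there under every fit.

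How these calls depend on single arrays differed between the genes. Ctgf passed at month 3 and over all months with any 1 of the 24 arrays left out. Postn at month 3 was lost only without month 3 array 4 (1.65, adjusted p = 0.0772). Comp at month 3 was lost without any 1 of Sham 1, 2, 5 and 6, month 1 array 2, month 2 arrays 1, 2, 3 and 5, and each of the 4 month 3 arrays, with changes down to 1.59 and adjusted p up to 0.135. The calls over all months were the least firm: Postn passed only when the array left out was Sham 6, 7, 8 or 9, month 1 array 2, 3 or 4, or month 2 array 2, and Comp only without Sham 7, 8 or 9, month 1 array 2, 3 or 4, or month 2 array 4. Between months 3 and 1, Ctgf was lost without month 1 array 2, 3 or 4 or month 3 array 2 or 3 (adjusted p up to 0.0848), Thbs2 without month 1 array 2 or 3 or month 3 array 2 or 3 (adjusted p up to 0.0736), and Postn passed without month 1 array 1 or 5.

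With the close arrays averaged, Ctgf at month 3 kept its call (1.50 ± 0.47, adjusted p = 0.0321). Postn and Comp at month 3 kept their size and lost it (1.96, adjusted p = 0.0605, and 2.15, adjusted p = 0.0705). Over all months none of the 3 passed (Postn 1.02, adjusted p = 0.224; Comp 1.37, adjusted p = 0.157; Ctgf 0.80, adjusted p = 0.145), and between months 3 and 1 Ctgf stood at 0.0504 and Thbs2 at 0.0562. Averaging also cut the calls among all genes, to 2709 at month 3 and 757 over all months, against 4850 and 3042. Without Sham 3, 4 and 10, the shams with high Myl7, Ctgf and Comp passed at month 3 (1.56, adjusted p = 0.0119, and 2.16, adjusted p = 0.0413) and Postn did not (1.84, adjusted p = 0.0530). Over all months 0 of the 7 passed without them, while 1902 of the 12474 genes did (Postn 1.19, adjusted p = 0.131; Comp 1.72, adjusted p = 0.0508; Ctgf 0.92, adjusted p = 0.0619).

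With slide as a fixed block, the changes of Postn, Comp, Ctgf and Thbs4 against sham were larger at months 2 and 3. At month 3 they were 2.30 for Postn, 2.51 for Comp, 1.88 for Ctgf and 2.38 for Thbs4, and at month 2 they were 2.73, 3.23, 1.66 and 3.62, and all 8 passed (adjusted p from 0.00419 to 0.0472). Among the 12474 genes this fit called 3975 at month 3, 1210 at month 2 and 2002 over all months. Over all months Thbs4 passed too, at 2.47 (adjusted p = 0.0327), while between months 3 and 1 neither Ctgf (1.11, adjusted p = 0.0972) nor Thbs2 (-0.63, adjusted p = 0.0524) passed. Slide 2 held no sham and 4 of the month 2 arrays. Its month 1 arrays (2, 3 and 4) were the low ones of that month for Postn, Comp, Ctgf and Thbs4. In this fit the slide and that split of month 1 cannot be told apart, so the larger changes do not strengthen the result. On slide 3 alone the month 3 changes were 1.71 for Postn, 1.68 for Comp and 1.59 for Ctgf, and none passed (adjusted p = 0.158, 0.187 and 0.0644), while 1609 of the 12474 genes did. Between months 3 and 1 on that slide Ctgf differed by 0.44 and Thbs2 by -0.30, from 1 month 1 array (adjusted p = 0.738 and 0.577).

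The arrays with the highest members were also arrays with a high level of Myh7, the slow myosin heavy chain that marks the stressed adult mouse ventricle. Myh7 read 5.75, 2.49, 2.52, 2.03 and 5.13 at month 1, 4.67 to 5.63 at month 2 and 5.01 to 5.61 at month 3, against 4.73 to 5.91 in Sham 6 to 9 and 1.62 to 2.16 in the other 6 shams. Month 1 arrays 1 and 5 thus stood with the high shams, and they were also the month 1 arrays with the highest Postn, Thbs1, Thbs4, Ctgf and Comp. Thbs2 was ordered the opposite way at month 1, with arrays 1 and 5 the lowest. No array was grouped by Myh7 for a test, and the part of whatever Myh7 follows in the changes by month was not tested.

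**Figure D3:**
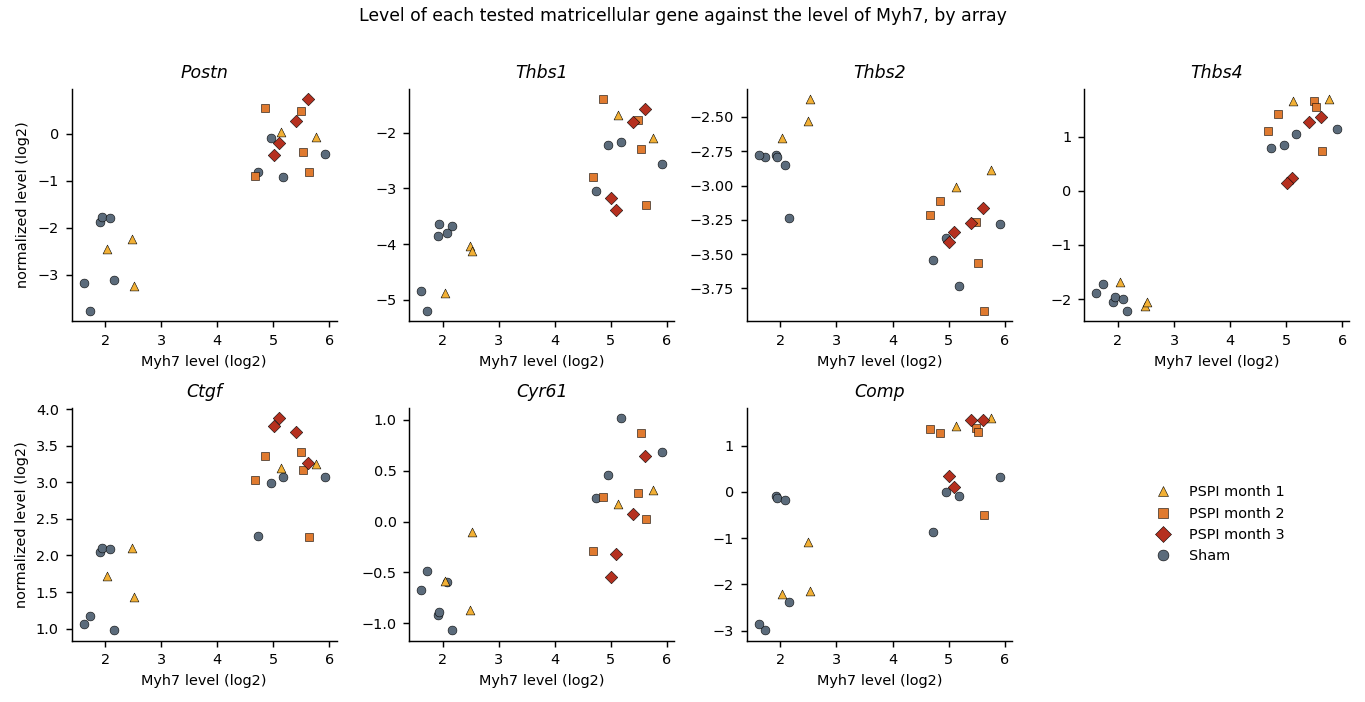
Level of each of the 7 tested genes against the level of Myh7 on the same array (both log2, relative to the array's 75th percentile), coloured by group. Arrays lie in 2 clouds, the lower with Myh7 at 1.62 to 2.52 and the upper at 4.67 to 5.91, and Sham 6 to 9 and month 1 arrays 1 and 5 lie in the upper cloud.

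Tnc, Spp1 and Cthrc1 were near the limit of the array. Tenascin C, an anti-adhesive protein of healing and loaded tissue, was above background with its first probe on month 2 array 5 (-6.76) and on Sham 6 (-3.99) and with its second probe on no array. Osteopontin (Spp1), a product of macrophages and injured myocardium that binds integrins and CD44, was above background on 3 PSPI arrays: month 1 array 5 at -6.57 and month 2 arrays 1 and 5 at -4.47 and -4.23. Cthrc1, a secreted protein of matrix-producing fibroblasts, was above background on month 1 array 5 (-6.48) and month 2 arrays 1, 2 and 5 (-4.84, -7.21 and -4.92). Spp1 and Cthrc1 were above background on 0 of 10 shams and 0 of 4 month 3 arrays.

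Changes of these genes are not read as folds, since at most 3 arrays of any month measured a probe above background. In a fit with no filter on dim probes, over 23338 genes, Spp1 passed over all months (1.16 ± 0.34, adjusted p = 0.0319) and at month 2 (2.00 ± 0.45, adjusted p = 0.0207), and Cthrc1 did not pass at month 2 (1.53 ± 0.48, adjusted p = 0.0731). Those fits rest on sham values below background, so the sizes are not measured changes, and the 2 month 2 arrays with measured Spp1 are a close pair.

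**Figure D4:**
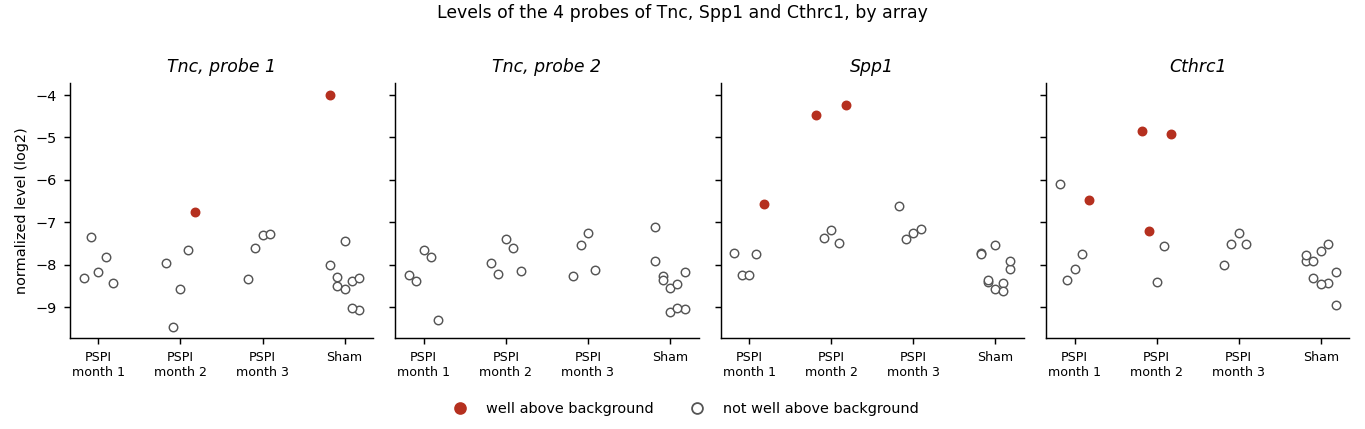
Level of the Spp1, Cthrc1 and Tnc probes on every array by group (log2, relative to the array's 75th percentile); filled points are well above background and open points are not. Filled points for Spp1 and Cthrc1 are all from PSPI months 1 and 2, and the highest Tnc value is Sham 6 at -3.99.

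Of 20 further matricellular genes, 16 were tested: 1 rose over all months and 3 rose and 2 fell at month 3, beside 24.4% and 38.9% of all genes called, with a median change over all months of 0.14 beside -0.01 for all genes. Galectin 3 (Lgals3), a beta-galactoside-binding lectin of macrophages and fibrosis, rose by 0.72 ± 0.19 over all months (adjusted p = 0.00853) and by 0.94 ± 0.27 at month 3 (adjusted p = 0.00837), where its 4 arrays at -1.32 to -1.20 were above every sham (-2.87 to -1.84). Vitronectin (Vtn), an adhesive plasma and matrix protein, fell at month 3 by 0.76 ± 0.17 on the log2 scale (adjusted p = 0.00189). Fbln5, an elastic fibre protein, did not pass over all months (0.27 ± 0.11, adjusted p = 0.0685).

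Among 24 receptors that bind matricellular proteins, 21 were tested, and 5 rose and 2 fell over all months, with 7 and 2 at month 3. Itga5, the alpha chain of the fibronectin receptor, rose by 0.77 ± 0.13 (adjusted p = 0.000422) and by 1.06 ± 0.19 at month 3 (adjusted p = 0.000188), with month 3 arrays at -3.28 to -2.78 and shams at -4.51 to -3.23. Lrp1, the endocytic receptor that clears thrombospondins, rose by 0.48 ± 0.11 (adjusted p = 0.00321), and its 4 month 3 arrays were above every sham. Itgb6, the epithelial integrin chain that activates latent TGF-beta, fell: its change was -0.99 ± 0.22 over all months (adjusted p = 0.00289) and -1.79 ± 0.31 at month 3 (adjusted p = 0.000142), with month 3 arrays at -5.00 to -3.76 and shams at -3.07 to -0.61.

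Of 27 upstream regulators, 24 were tested, and 2 rose and 3 fell over all months, with 1 and 5 at month 3. Tgfb1, the cytokine that induces Postn and Ctgf in fibroblasts, rose by 0.56 ± 0.10 over all months (adjusted p = 0.000777) and by 0.54 ± 0.15 at month 3 (adjusted p = 0.00584). The angiotensin receptor Agtr1a fell by 0.51 ± 0.16 on the log2 scale (adjusted p = 0.0270), and the endothelin receptor Ednra fell at month 3 by 0.34 ± 0.10 (adjusted p = 0.00940, and -0.19 with array weights, adjusted p = 0.0737, or on slide 3 alone, adjusted p = 0.490). Tead1, a DNA-binding partner of YAP, was called lower with its brightest probe (-0.26 ± 0.08, adjusted p = 0.0293), but stood at 0.043 when all its probes were averaged and at -0.16 with slide as a fixed block (adjusted p = 0.688 and 0.380).

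Of 20 other YAP/TAZ target genes, 17 were tested, and 3 rose and 3 fell over all months, with 4 and 4 at month 3, in both directions alike. Gadd45b, a stress-response gene, rose by 0.61 ± 0.11 (adjusted p = 0.000725) and by 0.86 ± 0.16 at month 3 (adjusted p = 0.000265). Tissue factor (F3) fell at month 3 by 0.67 ± 0.12 on the log2 scale (adjusted p = 0.000262), and Arhgef17 fell by 0.42 ± 0.11 over all months (adjusted p = 0.00841).

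Of 18 genes of the fibrillar matrix and of proteins that work with periostin, 16 were tested, and 2 rose and 0 fell over all months, with 3 and 0 at month 3. They included the small leucine-rich proteoglycans biglycan (Bgn, 0.57 ± 0.16, adjusted p = 0.0146, and 0.72 ± 0.23 at month 3, adjusted p = 0.0174) and decorin (Dcn, 0.25 ± 0.09, adjusted p = 0.0331, and 0.37 ± 0.12 at month 3, adjusted p = 0.0187). The call of Dcn depended on the scaling: at month 3 it stood at 0.11 after quantile normalization, 0.099 with normexp background correction and 0.21 with the percentile over all probes (adjusted p = 0.606, 0.713 and 0.135), and over all months at 0.16 after quantile normalization (adjusted p = 0.338). Loxl2, a collagen cross-linking enzyme, did not pass (0.61 ± 0.24, adjusted p = 0.0635). Of 16 enzymes and inhibitors that govern the cleavage of matricellular proteins, 9 were tested, and 2 rose and 1 fell over all months and at month 3. The inhibitor Timp1 rose by 1.27 ± 0.43 (adjusted p = 0.0346, and 1.16 with close arrays averaged, adjusted p = 0.172). The membrane protease Mmp14 was called higher (0.58 ± 0.14, adjusted p = 0.00603), but stood at 0.23 with normexp background correction (adjusted p = 0.0658). Adamts7, which cleaves Comp, was called lower (-0.80 ± 0.27, adjusted p = 0.0368), but stood at -0.13 with the deposited table (adjusted p = 0.630), and 1 of its 4 month 3 arrays was above background. At month 1, 0 genes of any of these 6 lists passed.

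Some of these calls were as fragile as those of the members. Of 15 calls over all months among the named genes of the 6 lists, 5 passed with the close arrays averaged (Itga5, Itgb6, Lrp1, Tgfb1 and Gadd45b), and of 12 calls at month 3, 10 did (not Bgn and Adamts7). Without Sham 3, 4 and 10 the counts were 9 of 15 and 11 of 12. On slide 3 alone months 1 and 2 had 1 array each, so calls are not read there. By direction alone, 15 of 15 and 12 of 12 were unchanged on that slide.

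Markers of cell types that could make these proteins were read next. Their counts stand beside 24.4% of all genes called over all months and 38.9% at month 3. Of 6 markers of activated fibroblasts, all tested, 2 rose over all months and 2 at month 3: Ltbp2, a TGF-beta-binding matrix protein, by 1.57 ± 0.52 and 2.46 ± 0.74 (adjusted p = 0.0324 and 0.0126), and smooth muscle actin (Acta2) by 0.74 ± 0.16 and 0.59 ± 0.22 (adjusted p = 0.00256 and 0.0431). At month 3 Acta2 stood at 0.50 after quantile normalization, 0.60 with close arrays averaged and 0.45 without Sham 3, 4 and 10 (adjusted p = 0.135, 0.127 and 0.152). Over all months Ltbp2 stood at 1.31 with close arrays averaged and 1.47 without Sham 3, 4 and 10 (adjusted p = 0.189 and 0.113). The summed level of a list adds its genes on the linear scale, so bright genes weigh most. For this list it was 2.89 to 3.96 at month 1, 2.85 to 3.85 at month 2 and 3.05 to 3.92 at month 3, against 2.28 to 3.36 in shams. Acta2 by itself read 2.08 to 3.08 in shams, so the sum mostly follows Acta2. Of the 6, 3 (Fap, Fmod and Thbs3) are also in another of the lists used here. Of 8 general fibroblast markers, all tested, 0 rose or fell over all months, 1 rose at month 2 and 3 fell at month 3. Those with the smallest p over all months were higher without passing: Pi16 (0.61 ± 0.25, adjusted p = 0.0720), Meox1 (0.71 ± 0.32, adjusted p = 0.113) and Col1a2 (0.28 ± 0.18, adjusted p = 0.271). The falls at month 3 included Dpt (-1.57 ± 0.42, adjusted p = 0.00604) and Ddr2 (-0.40 ± 0.11, adjusted p = 0.00638). Dpt stood at -0.95 with close arrays averaged and at -1.02 without month 3 array 2 (adjusted p = 0.166 and 0.0611), and Ddr2 at -0.11 with its probes averaged (adjusted p = 0.521). Their summed level was 4.75 to 5.33 across PSPI arrays, against 4.66 to 5.52 in shams. The part of these cells in the changes of Postn, Comp and Ctgf was not tested.

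Of 12 macrophage markers 9 were tested, and 5 rose and 0 fell over all months and 3 rose at month 3, among them C1qa (0.54 ± 0.11 over all months, adjusted p = 0.00235) and Cd14 (0.84 ± 0.18 at month 3, adjusted p = 0.000912). Their summed level was 2.44 to 2.94 in PSPI arrays and 2.33 to 2.92 in shams, and Cd163 was above background on no array. Of 11 valve, tendon and cartilage markers, cells in which Comp and Thbs4 are abundant, 4 were tested and 1 rose, Prg4, the lubricating proteoglycan of joints (1.92 ± 0.42 over all months, adjusted p = 0.00293, and 2.31 ± 0.60 at month 3, adjusted p = 0.00448). Their summed level was -1.05 to 1.36 at month 1, 0.62 to 1.42 at month 2 and 0.80 to 1.02 at month 3, against -1.50 to 1.04 in shams. Over all months and at month 3, 0 of 4 tested platelet markers, a source of Thbs1, passed, and 2 rose at month 2. Among mesothelial and epicardial markers 4 of 7 were tested and 1, Msln, was called lower. Krt19 (0.97 ± 0.50 over all months, adjusted p = 0.157) and Wt1 (0.38 ± 0.18 at month 3, adjusted p = 0.0967) were higher without passing. Lrrn4 was lower without passing (-0.61 ± 0.62 over all months, adjusted p = 0.485), with 0 of 4 month 3 arrays above background. Msln is given by level alone, since 1 of 4 month 3 arrays was above background: -7.45 to -4.05 at month 3, against -4.35 to -0.03 in shams. Of the 6 tested atrial markers 0 passed, with a summed level of 1.46 to 6.60 in PSPI arrays and 0.46 to 7.66 in shams. The endothelial list had 1 higher over all months (Kdr, 0.37, and 0.21 without Sham 3, 4 and 10, adjusted p = 0.242) and 3 higher at month 3, the smooth muscle list 1 higher (Des) and 2 lower (Rgs5 and Kcnj8) over all months, and the ventricular list 0, with Ryr2 lower at month 3 (-0.78 ± 0.17, adjusted p = 0.00137). Of the 11 marker calls over all months and the 12 at month 3, 4 and 7 passed with the close arrays averaged.

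The genes whose levels followed the members most closely were sought over the 24 arrays among 12462 genes, as a description without a test, since the arrays share groups, slides and close pairs. Postn was followed by Ltbp2 (Pearson r = 0.98), the elastic fibre protein Mfap5 (0.98), the membrane channel Panx1 (0.97), the actin-binding protein Dbn1 (0.96) and the thyroid hormone deiodinase Dio2 (0.96). After the group means were taken out r was 0.97, 0.97, 0.98, 0.94 and 0.95, so these levels moved together within groups as well. Ctgf was followed by the transcription factor Maff (0.96), transglutaminase 2 (Tgm2, 0.95), Ltbp2 (0.95), the NADPH oxidase Nox4 (0.94) and Carhsp1 (0.94), with 0.94, 0.91, 0.93, 0.92 and 0.90 within groups. Ltbp2 was thus near both.

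Among the members, Postn followed Ctgf (r = 0.92), Thbs1 (0.91), Comp (0.91) and Thbs4 (0.89) more closely than Cyr61 (0.67), and it ran against Thbs2 (-0.56). For Spp1, measured above background on 3 arrays, the nearest were Ncf4 (0.83), Lgals3 (0.82), Serpine2 (0.81), Parvb (0.81) and Fcgr2b (0.80), and r was 0.54 to 0.75 without month 2 arrays 1 and 5, so these values rest largely on 2 arrays.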

How the data were processed

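Total RNA from the right ventricle was read on Agilent arrays with 1 colour (Cy3), 24 in all, with probe coordinates on mm9. The deposited intensity of each spot and its 0 or 1 flags come from Agilent Feature Extraction 10.7.3.1, per the file headers and the submitters' processing notes. That software subtracts the background and does not scale between arrays. The deposited table of the series equals the scanner's net signal intensity on 62976 spots of each array (relative tolerance 0.001), and it served as an alternative.

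Control and outlier spots were left out and the spots of a probe averaged. The deposited processed intensity was put on the log2 scale and the 75th percentile of each array was subtracted, taken over the 16946 probes that every array measured well above background. To be kept, a probe had to be well above background throughout at least 1 group (21040 of 55681 were). The kept probe with the highest mean stood for its gene, which gave 12474 genes. Names came from accessions (26582 probes), symbols (2602), older symbols (492) or the files (1421), and 24584 probes stayed unnamed (RefSeq, GRCm38.p6). From 36.1% to 56.1% of an array's probes were above background.

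Groups were compared with limma 3.58.1 in R 4.3.3 (lmFit and eBayes on 4 group means, two-sided, Benjamini-Hochberg over all genes, threshold 0.05), after a check on simulated data. All months together means the unweighted mean of the 3 month means. The genes named from each list are up to 3 with the smallest p over all months and up to 2 at month 3, and likeness is given for Postn, Ctgf and Spp1. Members and lists were chosen with earlier results of these data known. Replicate numbers in the titles were not taken as pairs. Of 27 same-number pairs, 9 had a correlation of deviations above 0.1 (median 0.0043, highest 0.52), and other pairs had a median of -0.012. This check showed no pairing but cannot exclude it. Alternatives covered scaling, background correction, the filter, the probe chosen, slide, close arrays, array weights and each array left out in turn.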

Additional observations from a re-analysis of the deposited data

Results flagged for a closer look

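The first Tnc probe read -3.99 on Sham 6 and -7.43 on the next highest sham, a gap larger than Dixon's 95% limit for 10 arrays. It is 1 of 2 arrays on which this probe was above background, and the second Tnc probe was not above background on Sham 6. Comp read -0.49 on month 2 array 4, against 1.27 to 1.38 on the other 4 arrays of that month, which passes the same limit for 5 arrays. Over the 44 sets of arrays examined, chance alone marks about 1 set in 20.

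The effect against sham differed between months 3 and 1 for Thbs2 (a log2 difference of -0.61 ± 0.20, adjusted p = 0.0269) and for Ctgf (1.31 ± 0.44, adjusted p = 0.0310), by limma's test of the difference itself. All 4 month 3 arrays lay below all 5 month 1 arrays for Thbs2. For Ctgf they lay above them by a narrow margin, with the lowest at 3.260 and the highest month 1 array at 3.253. How many of all genes separate these months was not counted, and 28.5% of all tested genes were called between them.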

How the results depend on the processing

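At month 1, 0 of the 7 tested genes passed under any alternative run (limma, with 1 gene at an unadjusted p under 0.05 among all arrays), and 0 passed between months 3 and 2. Over all months the count of 3 became 1 with the percentile over all probes, with a gene's probes averaged or with the stricter filter. It became 2 with no filter (Ctgf and Spp1, with Postn at adjusted p = 0.0889 and Comp also lost). The count was 4 with slide as a fixed block and 6 with the replicate block. It was 0 without Sham 3, 4 and 10 or with close arrays averaged, and 1 to 4 with single arrays left out. Slide 3 held 1 array each of months 1 and 2, so its count over all months is not given. At month 2 the count of 0 became 7 with array weights (4423 of all 12474 genes called, against 1805 in the main test), 7 with the replicate block (3014), 4 with slide as a fixed block (1210), 2 with only the groups compared, 1 with no filter (Spp1), and 0 to 4 with single arrays left out. At month 3 the count of 3 became 1 with close arrays averaged, 0 on slide 3 alone, 6 with the replicate block, 4 with slide as a fixed block, 2 without Sham 3, 4 and 10 (Postn lost), 2 with Comp lost under no filter (adjusted p = 0.0768), the stricter filter (0.0523), the percentile over all probes (0.0594) or array weights (0.105), and 1 to 3 with single arrays left out. Between months 3 and 1 the count of 2 became 0 with close arrays averaged, with no filter, on slide 3 alone or with slide as a fixed block, 1 with the deposited table or quantile normalization, 3 with the replicate block or array weights, and 0 to 3 with single arrays left out. Between months 2 and 1 the count of 0 became 6 with array weights, under which 2088 of all genes were called, against 2 in the main test. Pairing by replicate number was not established, so the replicate block is not read as a paired test.

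Some signs turned. At month 1 they turned with close arrays averaged (Postn -0.25, Thbs1 -0.39, Thbs4 -0.52, Cyr61 -0.22), with array weights (Postn -0.33, Thbs1 -0.31, Thbs4 -0.12, Ctgf -0.015, Comp -0.43), without Sham 3, 4 and 10 (Thbs4 -0.22, Cyr61 -0.23), with the percentile over all probes (Cyr61 -0.016) and on slide 3 alone (Thbs2 -0.0060). Without Sham 3, 4 and 10 Cyr61 was -0.055 at month 3 and -0.028 over all months. Thbs2 over all months was 0.12 without those shams, 0.12 with close arrays averaged and 0.094 with the deposited table, which gave 0.063 at month 3. Between months 3 and 1 on slide 3 alone, Postn was -0.012, Thbs1 -1.02, Thbs4 -1.07, Cyr61 -0.24 and Comp -0.76. Tead1 over all months was 0.043 with its probes averaged. With single arrays left out, month 1 changes ran from -0.22 to 0.60 for Postn, -0.28 to 0.52 for Thbs1, -0.25 to 0.70 for Thbs4, -0.12 to 0.17 for Cyr61 and -0.084 to 0.87 for Comp. Thbs2 over all months ran from -0.085 to 0.025, and Cyr61 from -0.035 to 0.36 at month 3 and from -0.046 to 0.35 between months 3 and 1. The cause of these changes was not tested. Signal over background limits Tnc, Spp1 and Cthrc1, and 4 or 5 arrays a month limit the rest.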
